A study of Mus musculus with 15 samples.

Results

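Binding of the RNA-binding protein SAM68 was mapped with iCLIP2 in E14 mouse embryonic stem cells and in embryoid bodies grown from them, and the sites described here were found in the stem cells (day 0) and again at both later times (day 3, day 10). A shared site is a day 0 binding site that overlaps, by at least 1 nt on the same strand, both a day 3 site and a day 10 site. There were 2993 shared sites among 29740 day 0 sites, or 10.1% (exact 95% binomial interval 9.72% to 10.4%), and the remaining 26747 day 0 sites are called the other day 0 sites. The lists held 28266 sites on day 3 and 74287 on day 10, so 132293 in all, each site 5 nt wide. The shared sites were chosen by the called positions on the 3 days, so their overlap with the later lists is a description and supports nothing further.

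Day 0 cells were E14 stem cells grown without feeders in serum medium with leukaemia inhibitory factor and inhibitors of GSK3 and MEK. Day 3 embryoid bodies were grown in hanging drops and day 10 embryoid bodies in spheroid plates, in medium with serum, so the day and the kind of culture cannot be told apart. The labels name no genetic change in any group, and all 3 days come from 1 cell line. Cells of every day were irradiated at 254 nm with 150 mJ per square centimetre, embryoid bodies after they had been dissociated to single cells, and SAM68 was precipitated with 1 antibody. Each day had 5 libraries, 15 in all, but the deposited files hold 1 list of sites per day. The lists carry no read counts, so the depth is unknown, no replicate spread can be given and no difference between days could be tested. Intervals below are exact (Clopper-Pearson), cover counting error only, and treat sites as independent although sites of 1 gene share its RNA.

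SAM68, the product of Khdrbs1, belongs to the STAR family, whose KH domain binds short RNA motifs rich in A and U such as UAAA. In the nucleus it is known for its part in alternative splicing and in the choice of polyadenylation site, and it also binds some cytoplasmic mRNAs. In iCLIP, ultraviolet light joins protein and RNA at their contact, and the cDNA stops beside that point. A cDNA that is copied to the 5′ end of its RNA also ends there, and whether any site at an RNA's start comes from such cDNAs was not tested.

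Sequence was at hand for only 41 of the 2993 shared sites, and 27 of these were in ribosomal protein genes. The RNA of these genes is known to begin with a C inside a run of pyrimidines, the 5′ terminal oligopyrimidine tract, through which LARP1 and mTOR signalling control its translation. Sequence was at hand only around RefSeq transcript starts (mouse build GRCm38.p6), which placed 96 day 0 sites, 41 of them shared, inside a window of 29 nt, the site with 12 nt on each side. The following shared sites of ribosomal protein genes are printed 5′ to 3′ in the sense of the gene, with the 5 nt of the site in capitals. They show the runs of C and T in or beside which the sites lay. The sites of Rps26 and Rpl38 also hold other bases.

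Rpl34 (chr3:130730335-130730363, - strand): actcacccgcccCTTCCttttcctcttcc
Rpl34 (chr3:130730330-130730358, - strand): cccgccccttccTTTTCctcttccgggga
Rplp2 (chr7:141447635-141447663, + strand): ctgcgtcagcgtCTTCCtttcgccgccgg
Rpl14 (chr9:120571499-120571527, + strand): gcagggcgggccCTCTCtcttctcgctga
Rps18 (chr17:33955649-33955677, - strand): gtcacttccgctCTCTCttccacaggagg
Rps26 (chr10:128626489-128626517, - strand): ggcaagccgccgGATCCtctttcgagtct
Rpl27a (chr7:109519185-109519213, + strand): cgtgagctcctcCCTTTtccctttctgcc
Rpl35 (chr2:39005113-39005141, - strand): ccgccctttcctCTTTCtctcgaaccagg
Rps10 (chr17:27635224-27635252, - strand): gcacgccccttcCTTTCcagcctccgcct
Rpl38 (chr11:114668575-114668603, + strand): tcgttctttcccCGTTCtcttcggttctc
Rps24 (chr14:24490706-24490734, + strand): cagtgagcggtcCTCTTttcctcctctcc

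The following shared sites lay near RefSeq starts of other genes. The start near the Ddx17 site is an internal one, and that site lies 13.8 kb from the 5′ end of the gene span. Rack1 encodes a protein of the small ribosomal subunit, Gas5 is a long non-coding RNA that hosts snoRNAs, Ddx17 encodes an RNA helicase, Srsf5 a splicing factor and Homer1 a synaptic scaffold protein.

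Rack1 (chr11:48800344-48800372, + strand): gcggaggccgctCTTTCtttttctccaca
Gas5 (chr1:161035150-161035178, + strand): cagccgccatctCAGCCtttcggagctgt
Ddx17 (chr15:79532941-79532969, - strand): aaacagagaatgTTTTTtaattatttcta
Srsf5 (chr12:80945518-80945546, + strand): ccgagctgctaaGTGCGtcagttgtggag
Homer1 (chr13:93307878-93307906, + strand): gggtgtgtaaaaAGTGTaccaggcccctt

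For contrast, the following day 0 sites, all outside ribosomal protein genes, were not shared. Unshared sites of Rpl28, Rps12 and Rps19, not printed here, also lay in or beside runs of C and T. Cobl encodes an actin nucleator, Dlg1 a scaffold protein of cell junctions, Jam2 a junctional adhesion molecule, Cd9 a tetraspanin, Nanog a transcription factor of pluripotency and Atp5b a subunit of ATP synthase.

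Cobl (chr11:12384531-12384559, - strand): taaaggtctagcATTTAaatgaccaagcc
Dlg1 (chr16:31754236-31754264, + strand): aagaagccttatATTTAaaattcagttca
Jam2 (chr16:84822801-84822829, + strand): aaaatcctttatAATTTaaaagaattcca
Cd9 (chr6:125481065-125481093, - strand): ttcttgtgtagtATTTAaacaaaagtaac
Nanog (chr6:122707579-122707607, + strand): gagccgttggccTTCAGataggctgattt
Atp5b (chr10:128083297-128083325, + strand): tcggcgctcagtCTCCAcccggattccgc

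These sites were picked for display after their sequences had been seen. The first 4 of them lay in or beside TTTAAA, the A- and U-rich kind of sequence that SAM68 is known to bind, and the first 11 shared sites lay in or beside runs of C and T. Over all 96 windows, TAAA occurred on the sense strand of 12 of 55 other sites and of 1 of 41 shared sites, and the antisense counts were the same. All 5 bases of the site were C or T at 22 of 33 shared sites within 50 nt of a RefSeq start that had a window (66.7%), at 4 of 21 other day 0 sites there, and at the centre of 1425 of 32851 windows centred on RefSeq starts (4.34%). CTTT occurred on the sense strand of the window of 26 of the 33 shared sites (78.8%), of 6 of the 21 other sites (28.6%) and of 11.5% of all start windows. Among the shared sites in ribosomal protein genes it occurred in 23 of 26 windows. These 26 were most of the 33, so the counts cannot separate sharing from the kind of gene. On the antisense strand CTTT was found in 2 of the 33 shared, in 2 of the 21 other and in 11.2% of all start windows. TAAA was found in none of the 33 shared windows, in 3 of the 21 others and in 6.52% of all start windows on the sense strand, and in 1 of 33, 3 of 21 and 6.24% on the antisense strand. TTAA, which overlaps TAAA by 3 letters and reads the same on both strands, was in 1 of 33, 3 of 21 and 5.27%. Each window lies around a RefSeq start, but that start can belong to another gene or strand. The sites of Cobl, Jam2 and Cd9 lay at 27595, -12309 and 13681 nt from the nearest start on their own strand. Among shared sites, that of Hsp90ab1 lay at 19669 nt. The counts over all 96 windows mix such sites with sites near starts, so they cannot separate position from sharing. The windows say nothing of the sequence at the shared sites elsewhere.

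The later sites lay almost on top of the shared ones. All 3 days had the same 5 positions at 993 of 2993 shared sites (33.2%), and both later sites lay within 1 nt of the day 0 site at 2258 (75.4%). At the edge of the definition, the farther of both partners shared only 1 nt at 108 shared sites, and it started 5 to 10 nt away, just outside, at 381 other sites, 66 of them at 5 nt. The counts fell steeply from an offset of 0 to the edge of the definition and stayed low but roughly level just outside it, and a gap of up to 10 nt would have raised the shared share from 10.1% to 11.8% and the excess of sites with another day 0 site within 50 nt from 6.96 to 12.1 percentage points.

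**Figure D1:**
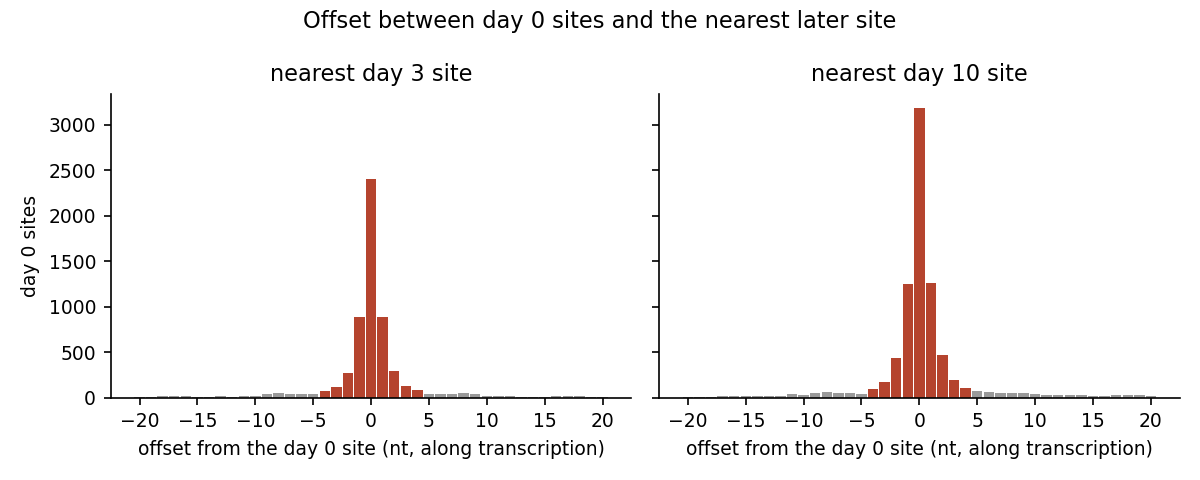
Offset in nt, along the direction of transcription, from each day 0 site to the nearest day 3 site (left) and the nearest day 10 site (right), as numbers of day 0 sites; red bars overlap the day 0 site. The highest bars stand at 0, with 2409 sites for day 3 and 3184 for day 10, and at 5 nt the counts are 44 and 71.

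Of the day 0 sites, 5160 overlapped a day 3 site (17.4%) and 7178 a day 10 site (24.1%). Of those that overlapped a day 3 site 58.0% also overlapped a day 10 site, against 17.0% of the 24580 that did not. Seen from the later lists, 2995 day 3 sites (10.6%) and 2999 day 10 sites (4.04%) overlapped a site on both of the other days. The day 10 list is the longest, and its length sets part of that last share.

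Shared sites were spread over 1607 of the 5056 genes with a day 0 site, or 31.8%, and over 48.9% of the 3288 genes with a site on every day. There were 982 genes with 1 shared site, 534 with 2 to 4 and 91 with 5 or more, and 17 genes held 10 or more. In genes with a site on every day, 12.2% of 24455 day 0 sites were shared, and 5285 other day 0 sites lay in genes without a site on day 3 or on day 10. The 10 genes with most shared sites held 5.11% of them and 2.12% of the other sites.

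The gene with most shared sites was Etl4, also known as Skt, a gene of notochord and intervertebral disc development. Its 140 day 0 sites were followed by 180 sites at day 3 and 161 at day 10, and 22 of the 140 were shared (15.7%, 10.1% to 22.8%). They lay between 0.70 and 0.93 of the way along its 900-kb span, a stretch in which its day 0 sites as a whole also lay (0.68 to 1.00). Exoc4, a subunit of the exocyst that tethers secretory vesicles, came next, with 18 shared of 143 sites on day 0, and 175 and 435 sites on the later days. Its shared sites ran from 0.07 to 0.95 of the gene. Both genes were long and rich in sites. The interval of Etl4 lay just above the 10.1% of all day 0 sites, and that of Exoc4 (12.6%, 7.63% to 19.2%) took it in.

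Several genes of RNA-binding proteins held fewer shared sites, but these were a higher percentage of their day 0 sites. Rbpms, which encodes an RNA-binding protein of muscle and heart, had 15 shared of 60 day 0 sites (interval 14.7% to 37.9%), with 149 and 201 sites on days 3 and 10. Rbm39, a splicing factor related to U2AF65, had 14 of 41 (34.1%, 20.1% to 50.6%), with 35 and 61 later sites. Ddx17, a DEAD-box helicase that acts in splicing, had 13 of 27 (48.1%, 28.7% to 68.1%), with 17 sites on day 3 and 30 on day 10. All 13 of its day 0 sites that overlapped a day 3 site also overlapped a day 10 site, and the 13 lay between 0.62 and 0.93 of the gene. Luc7l2, a U1 snRNP-associated splicing factor, had 12 of 49 (24.5%), spread from 0.02 to 0.98 of its span.

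Genes of chromatin proteins and of transcription followed. Setd5, a chromatin regulator with a SET domain, had 13 shared of 67 sites and Ankrd11, a co-regulator of transcription, 12 of 74. Kansl1, a scaffold of the NSL histone acetyltransferase complex, had 11 of 72 and Smyd3, a lysine methyltransferase, 11 of 102. Tcf7l1, a transcription factor of the Wnt pathway, had 11 of 64. Rere, a co-repressor that works with retinoic acid signalling, had 11 of 46 (23.9%), with a median position of 0.06 of its 340-kb span, against 0.15 for all its day 0 sites. Enah, an actin regulator, had 11 of 57, with a median of 0.21 against 0.60 for all its day 0 sites. In Setd5 and Kansl1 the medians lay the other way, at 0.69 against 0.57 and 0.68 against 0.57, and in Ankrd11 they were 0.44 and 0.43, so the genes had no common direction.

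On the Y chromosome, gene ENSMUSG00000096768, which the tables used here do not name, had 16 shared of 43 sites.

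Among genes with at least 10 day 0 sites the highest shares belonged to some short genes and to some long ones. Rpl17, of the large ribosomal subunit, had 8 shared of 14 sites (57.1%), and Rps3, of the small subunit, 5 of 10. Malat1, an abundant nuclear long non-coding RNA, had 5 of 11 (45.5%, 16.7% to 76.6%), and all 11 of its day 0 sites overlapped one of its 65 day 10 sites, while the 9 day 3 sites met 5 of them. Xpo7, a nuclear transport receptor, had 9 of 22. Ddx6, a helicase of translational repression and mRNA decay, had 7 of 17, and 6 of the 7 lay in the last 10% of the gene. Ddhd1, a phospholipase, had 6 of 14, Aff4, a scaffold of the super elongation complex, 5 of 12, Ppp3cb, a catalytic subunit of calcineurin, 4 of 10 and Zfp609, a zinc finger protein, 4 of 10. With 10 to 22 sites a gene, each of these intervals is wide.

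Other genes rich in day 0 sites had no shared site. At least 1 shared site was found in 228 of the 292 genes with 20 or more day 0 sites (78.1%), which leaves 64 without, and 32 of those had sites on every day. Cobl had 140 day 0 sites and none shared (interval up to 2.60%), with 4 sites on day 3 and 1 on day 10. Jam2 had 82 and Sgcz, of the sarcoglycan family, 65, and neither had a later site. Bcat1, a branched-chain amino acid transaminase, had 67, then 2 and 0, Rnf17, a germ-cell Tudor protein, 51, then 25 and 0, and Tex14, a germ-cell protein of intercellular bridges, 47, then 1 and 1. In these genes the sites themselves were few or missing later. In Clybl, a mitochondrial enzyme gene, they were not: 49 sites on day 0, 37 on day 3 and 12 on day 10, of which 9 day 0 sites overlapped a day 3 site and 3 a day 10 site, but none overlapped both. In bulk lists, fewer cells that make an RNA and less of it per cell cannot be told apart.

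Ribosomal protein genes, taken by their Rpl and Rps symbols, were grouped after their values had been seen. Genes without a symbol here could not enter the group. They held 128 shared of 278 day 0 sites (46.0%, 40.1% to 52.1%), against 10.1% of all day 0 sites, and 57 of the 67 genes had at least 1. They made up 4.28% of the shared sites and 0.561% of the others. The large-subunit genes had 71 of 161 (44.1%) and the small-subunit genes 57 of 117 (48.7%), with intervals that overlapped. In 14 of the 67 genes every day 0 site was shared, among them Rpl27, Rpl27a, Rpl34 and Rpl35 with 3 of 3 each. Rpsa had 5 of 7, Rpl12 4 of 7 and Rpl23 4 of 6. Of the 128 shared sites, 31 lay within 50 nt of a RefSeq start, where 83.8% of 37 sites were shared, and 97 lay farther away, where 40.2% of 241 were. The high share was thus not only at the starts: inner positions counted too, with 63 of the 125 shared sites that lay within a gene span between its first and last 10%.

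Few day 0 sites lay at transcript starts, and those of ribosomal protein genes made up most of the shared ones. Within 50 nt of a RefSeq start lay 62 day 0 sites, of which 38 were shared (61.3%, 48.1% to 73.4%), and 31 of the 38 were in ribosomal protein genes. These 38 were 1.27% of the shared sites, and the 24 others were 0.0897% of the other sites. Without ribosomal protein genes 7 of 25 sites within 50 nt were shared (interval 12.1% to 49.4%). Within 10 nt, 18 of 26 were shared, and 3 of 10 without ribosomal protein genes. Beyond 100 and up to 1000 nt downstream of a start, 53 of 335 were shared (15.8%). Of these 53 shared sites 22 were in ribosomal protein genes, against 24 of the 282 other sites there. The remaining shared sites within 50 nt, outside the genes with an Rpl or Rps symbol, included those of Rack1, Gas5, Ddx17 and Srsf5 printed above. The others were those of Metap1, a methionine aminopeptidase, of ENSMUSG00000009927, at the RefSeq start of Rps25, and of ENSMUSG00000020048, at that of Hsp90b1. ENSMUSG00000009927 had no symbol here. It may thus be a ribosomal protein gene that the group missed and that the counts without ribosomal protein genes still hold.

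**Figure D2:**
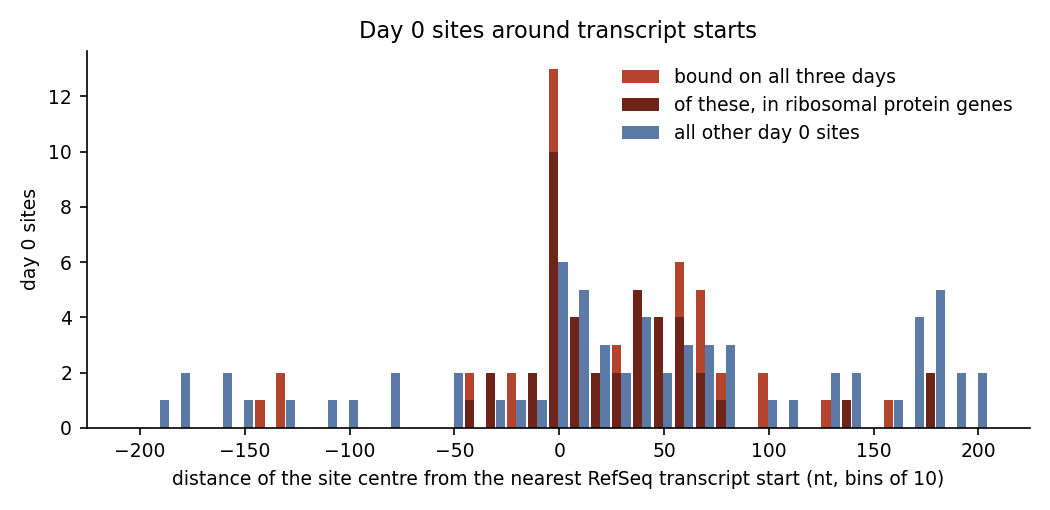
Day 0 sites by the distance of their centre from the nearest RefSeq transcript start in nt, in bins of 10; red bars are shared sites, the dark part those in ribosomal protein genes, and blue bars all other day 0 sites. The highest bar, 13 shared sites of which 10 are in ribosomal protein genes, stands at the start itself, beside 6 other sites.

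Short genes in general had higher shares. In genes of up to 5 kb 176 of 541 day 0 sites were shared (32.5%, 28.6% to 36.7%), from 5 to 10 kb 16.2%, from 10 to 20 kb 11.3%, and in each longer class between 7.29% and 9.87%. Without ribosomal protein genes the share up to 5 kb was 68 of 327 (20.8%, 16.5% to 25.6%). The median gene length was 64.5 kb over shared sites, 75.8 kb over the other day 0 sites and 80.6 kb over the other sites in genes with a site on every day. By the number of day 0 sites in a gene, the share was 11.4% with 1 site and 12.9% (11.3% to 14.6%) with 2, then 9.48% with 20 to 49 and 6.64% (5.88% to 7.47%) with 50 or more, so it was lowest in the genes richest in sites.

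Of the gene classes that the site lists give, protein-coding genes held 2826 of the shared sites, and 9.97% of their 28348 day 0 sites were shared. Genes that do not code for protein held 167, which was 5.58% of shared and 4.58% of other day 0 sites, and 2.83% of other sites in genes with a site on every day. The excess was small and uneven over classes. It was largest among short structured RNAs, with 22 shared of 35 sites (62.9%, 44.9% to 78.5%). In snRNA genes, the RNAs of the spliceosome and their copies, 16 of 19 sites were shared (84.2%, 60.4% to 96.6%), in 13 of 15 genes. The centres of these 16 lay 7 to 106 nt from the 5′ end of the RNA, with a median of 21.5 nt, and 10 lay within the first 30 nt. snRNA genes exist in near-identical copies, so which copy a site belongs to is uncertain, and sites in several copies cannot be told apart from 1 site counted more than once. Both sites in tRNA spans and 2 of 3 in rRNA spans of RefSeq were shared, with the same limit. Of 10 sites in snoRNA spans 1 was shared, although 9 of the 10 centres lay within the first 5 nt of the snoRNA.

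Long non-coding RNAs as a class had 99 of 1025 (9.66%), near the 9.97% of protein-coding genes. In genes with a site on every day they had 99 of 572 (17.3%, 14.3% to 20.7%), against 11.9% (11.5% to 12.4%) in protein-coding genes, so the class lay higher once genes without later sites were left out. The shares of single RNAs ranged widely. Kcnq1ot1, the antisense RNA that silences an imprinted domain, held 18 of its 75 day 0 sites as shared (24.0%, 14.9% to 35.3%), with 62 and 158 sites later. Gnasas1, another imprinted antisense RNA, had 4 of 16, and the unnamed processed transcript ENSMUSG00000085396 on the X chromosome 9 of 25 (36.0%). Neat1, the scaffold of paraspeckles, had 2 of 32 and Dleu2, a host of microRNAs, 2 of 58, with 50 and 122 sites on day 10. Processed pseudogenes had 14 shared of 43 sites (32.6%), whose reads cannot be told apart with certainty from those of the parent genes, and unitary pseudogenes 0 of 106, of which 105 lay in 1 gene, ENSMUSG00000031325.

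**Figure D3:**
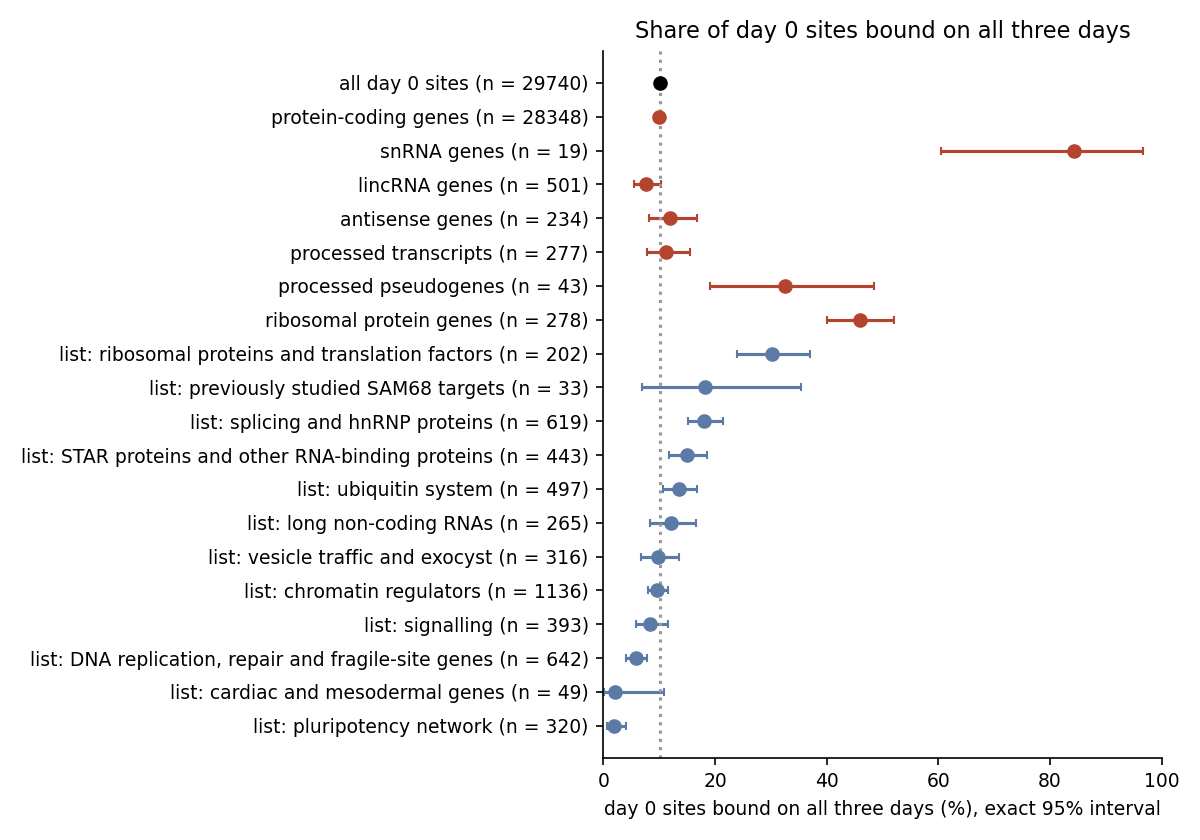
Share of day 0 sites that were shared, in percent, for all day 0 sites (black), gene classes and ribosomal protein genes (red) and 12 gene lists (blue), with exact 95% intervals for counting error and the number of day 0 sites in brackets; the dotted line is 10.1%. snRNA genes at 84.2% and ribosomal protein genes at 46.0% stand farthest right, and the pluripotency network at 1.88% farthest left.

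Gene lists ranged widely in their share of shared sites. For comparison, over all 5056 genes with a day 0 site the median share per gene was 0% and the mean 11.4%. Splicing and hnRNP proteins had 112 shared of 619 sites (18.1%, 15.1% to 21.4%) in 35 of 53 genes, with a median gene share of 12.5%. Beside Rbm39, Ddx17 and Luc7l2, Hnrnph1 and Ptbp2, regulators of exon choice, had 4 of 12 each, and Rbm25, a splicing factor, 10 of 40. STAR and other RNA-binding proteins had 66 of 443 (14.9%, 11.7% to 18.6%). Msi2, a translational regulator of stem cells, had 9 of 39, Igf2bp3, which binds and stabilises mRNAs, 6 of 24, and Qk, another STAR protein, 5 of 81. Khdrbs1, the gene of SAM68 itself, had 2 shared of 5 day 0 sites, with 12 sites on day 3 and 48 on day 10, and the centres of both lay 6 nt apart, at positions 129715974 and 129715980 of chromosome 4.

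Ribosomal proteins and translation factors of the list had 61 of 202 (30.2%, 24.0% to 37.0%) in 28 of 35 genes. Outside the ribosomal proteins, the elongation factor gene Eef1a1 had 4 of 8 and the helicase gene Eif4a2 4 of 12, while Npm1, a nucleolar chaperone, had 4 of 17. Genes earlier studied as SAM68 targets had 6 of 33 (18.2%, 6.98% to 35.5%): Pkm, the pyruvate kinase whose exons are spliced as alternatives, had 3 of 5, and Bcl2l1, an apoptosis regulator, Cd44, an adhesion receptor, and Clstn1, a calsyntenin, had 1 each. Without Pkm the share was 10.7%. The ubiquitin system had 67 of 497 (13.5%, 10.6% to 16.8%), led by Ube2k, a ubiquitin-conjugating enzyme, with 7 of 28, and Usp34, a deubiquitinase, with 6 of 33.

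Chromatin regulators lay near the background, with 110 of 1136 (9.68%). Within them, Nsd1, a histone methyltransferase, had 7 of 27, Asxl2, a Polycomb-associated protein, 8 of 53, and Kat6b, a histone acetyltransferase, 4 of 204. Vesicle traffic genes had 31 of 316 (9.81%), of which 18 were in Exoc4. Signalling genes had 33 of 393 (8.40%). Tead1, the effector of Hippo signalling, had 3 of 69, with 190 sites on day 10, and Rbpj, of Notch signalling, 2 of 45. Long non-coding RNAs of the list had 32 of 265 (12.1%) and 7.37% without Kcnq1ot1.

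DNA replication, repair and fragile-site genes had 37 of 642 (5.76%, 4.09% to 7.86%): Wwox, a tumour suppressor at a common fragile site, had 9 of 229, Rad51b, of homologous recombination, 6 of 88, and Pola1, a DNA polymerase subunit, 3 of 57. The low share of the list lay in its 4 genes with at least 50 day 0 sites, which had 20 of 459. The other 27 genes had 17 of 183 (9.29%, 5.51% to 14.5%), near the 10.1% of all day 0 sites, among them Atr, a checkpoint kinase, with 2 of 12, and Msh6, of mismatch repair, with 2 of 11.

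The pluripotency network had 6 shared of 320 sites (1.88%, 0.691% to 4.04%), in 3 of 22 genes. Jarid2, a cofactor of Polycomb repressive complex 2, had 4 of 35, Rif1, of telomere and replication control, 1 of 35, and Trim28, a co-repressor of transposable elements, 1 of 3. The list had 115 sites on day 3 and 114 on day 10, and in its genes with a site on every day the share was 4.8%. Without Jarid2 the share of the list was 0.702%. Naive pluripotency markers had 153 sites on day 0, 10 on day 3 and 1 on day 10, and none of the 153 was shared. The 153 lay unevenly, in Nr5a2 (46), Esrrb (39), Tfcp2l1 (35), Zfp42 (20), Nanog (10), Klf4 (2) and Pou5f1 (1). Pou5f1 had 2 sites on day 3, and Sox2 had 0 on every day. Cardiac and mesodermal genes had 1 of 49, in Meis2, a homeobox factor with 36 sites on day 0, 1 on day 3 and 186 on day 10. Of the markers of other cells, the cardiac, neural, endoderm and primed ones had no day 0 site, so they could not hold a shared one. They had 4, 0, 5 and 45 sites on day 3, the 45 in Dnmt3b (20), Fgf5 (19) and Otx2 (6). On day 10 they had 718, 218, 167 and 0 sites, unevenly over their genes. Of the cardiac sites 439 were in Slc8a1, before Gata4 (111), Ryr2 (87), Tbx20 (46) and Ttn (35). The neural sites were in Robo2 (149) and Cdh2 (69), with 0 in Pax6. Those of endoderm were in Col4a1 (87) and Dab2 (80), with 0 in Sox17 and Foxa2. Endothelial markers had 6 day 0 sites, none shared, and 29 on day 10. The 6 were all in Pecam1, which had 0 on day 10, the 29 all in Flt1, and Kdr had 0. The lists measure neither the share of each kind of cell nor RNA levels, and their part in which day 0 sites were shared was not tested.

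Shared sites had day 0 neighbours more often than others. Another day 0 site on the same strand lay within 50 nt of 455 shared sites (15.2%, 13.9% to 16.5%) and of 2204 other sites (8.24%, 7.91% to 8.58%). The share among other sites in genes with a site on every day was 8.31%. Within 10 nt the shares were 9.89% and 4.39%, and within 500 nt 48.6% and 39.4%. The median gap to the nearest day 0 site was 559 nt for shared and 827 nt for other sites. A day 0 site in a dense stretch also has more later sites around it that it could overlap, so the number of neighbours is not independent of the definition.

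Sites linked by gaps of at most 50 nt formed runs, and the share rose from 9.37% for 27081 sites that stood alone to 16.9% in pairs (421 of 2496) and 21.4% in runs of 3 (34 of 159). The only run of 4 held none. Both sites were shared in 75 of the 1248 runs of 2. When shared sites alone were linked by the same gap, they formed 84 pairs and no larger group. Rpl17 had 3 such pairs, and Ddx17, Rps3 and Gigyf1, a repressor of translation, had 2 each. Ribosomal protein genes had neighbours within 50 nt for 43 of their 128 shared sites (33.6%) and for 30 of their 150 others (20.0%), with intervals that overlapped. Without these genes the difference over all sites was 6.21 percentage points, against 6.96 with them. As a mean over the 1375 genes that held both kinds of site, neighbours lay by 14.3% of shared and 9.80% of other sites.

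**Figure D4:**
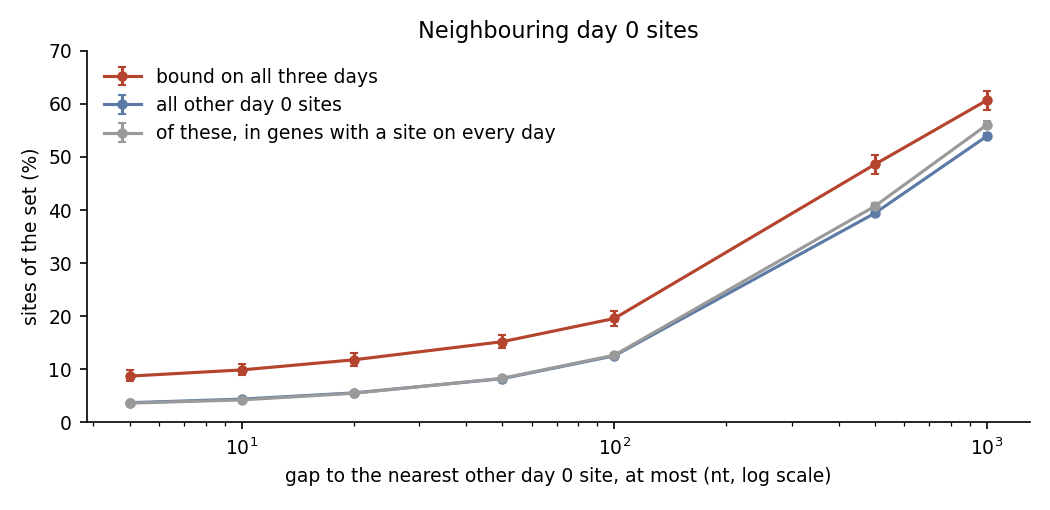
Share of sites, in percent, with another day 0 site on the same strand at or below a given gap in nt (log scale), for shared sites (red), other day 0 sites (blue) and other sites in genes with a site on every day (grey), with exact 95% intervals. The red points lie above the others at every gap, at 15.2% against 8.24% and 8.31% at 50 nt.

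Along the gene, shared sites lay slightly more often at the ends. The last 10% of the RefSeq span held 394 of 2823 shared sites (13.96%, 12.7% to 15.3%) and 11.7% (11.3% to 12.1%) of 25274 other sites, and the first 10% of the span held 10.6% (9.51% to 11.8%) and 8.82% (8.47% to 9.18%). The medians were 0.51 and 0.50 of the span, so the middle of the distribution did not differ by more than 0.01. Without ribosomal protein genes the first 10% of the span held 9.27% of shared and 8.81% of other sites, with intervals that overlapped, while the last 10% held 14.2% and 11.8%. As a mean over 1328 genes with both kinds of site, the last 10% held 14.3% of shared and 13.1% of other sites. Where the same 5 positions were required on all 3 days, the excess in the last 10% was 1.51 percentage points, with an interval of -0.653 to 3.91 that takes in 0.

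**Figure D5:**
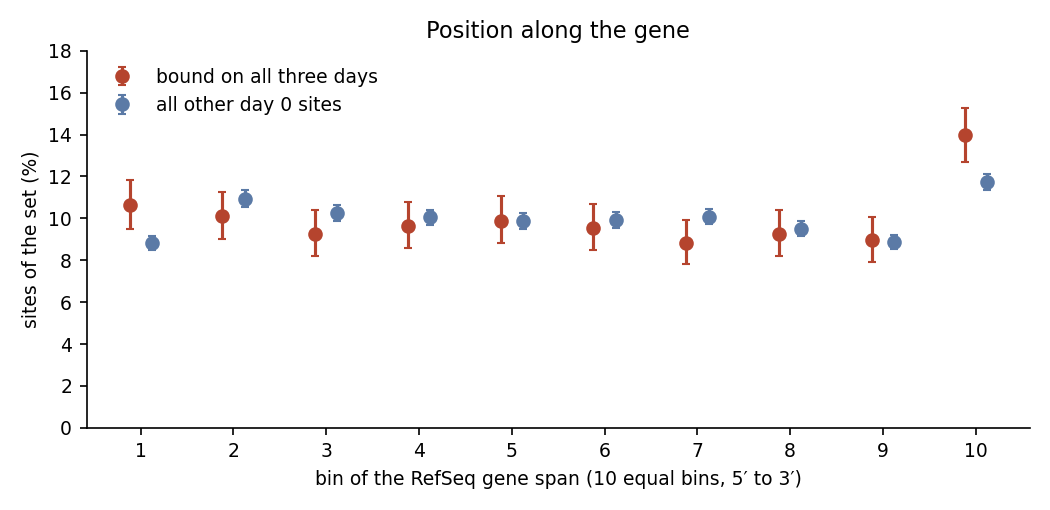
Share of shared sites (red) and of other day 0 sites (blue), in percent, in each of 10 equal bins of the RefSeq gene span from 5′ to 3′, with exact 95% intervals. The intervals of the sets do not overlap in bin 1, at 10.6% and 8.82%, and in bin 10, at 13.96% and 11.7%.

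The difference was larger close to the 3′ end. The last 1 kb held 258 shared sites (9.14%, 8.10% to 10.3%) and 1419 others (5.61%, 5.33% to 5.91%), and 8.41% and 5.46% without ribosomal protein genes. Read the other way, 15.4% of the sites in the last 1 kb were shared, against 9.71% elsewhere in the gene. Gigyf1 had 4 of its 5 sites, all 5 shared, in the last 1 kb. Rhoa, a small GTPase of the actin cytoskeleton, had 3 of its 4 sites shared, all 3 there, and Nono, a protein of paraspeckles, had all 3 sites shared, 2 of them there. Tardbp, which encodes TDP-43, had 6 shared of 16 sites, 2 of them there. The first 1 kb held 106 shared sites, of which 37 remained without ribosomal protein genes, a share of 14.3% of the 258 sites left there. Whether an end site lies in an exon or an intron was not used here.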

How the data were processed

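SAM68 iCLIP2 libraries (15, 5 per day) were crosslinked, precipitated and sequenced, and the labels' protocols give RNA fragments of 50 to 200 nt and molecular identifiers. The authors deposited 1 list of 5-nt sites per day, each site assigned to a gene and its class, per the file headers. The list's score column is 0 throughout in the deposited files and was not used. Per the submitters' processing notes, tools included STAR 2.7.11a, UMI-tools 1.1.6, SAMtools 1.22.1 and bedtools 2.31.1, and the builds listed were GRCm38.p5 and GRCh38.p14. How sites were called and how the 5 libraries were combined is not given in the sources used here. Sites that overlapped several genes were removed, per the file headers, which takes such sites out of view.

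Overlaps, gaps to the nearest day 0 site, positions along genes and exact 95% binomial intervals were computed in Python 3.11.15 with pandas 2.3.3, NumPy 2.4.6 and SciPy 1.17.1, checked on simulated lists. Gene IDs were named through RefSeq spans of the same class that held at least 80% of an ID's sites: 7374 of 7949 were named (92.8%), and 2831 shared sites lay in named genes. Sequences come from RefSeq promoter entries of GRCm38.p6, from 250 bases before to 50 after each start.

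Members and gene lists were chosen with earlier results of these data known. Named genes were the 15 with most shared sites, the 10 highest shares among at least 10 day 0 sites, the 10 lowest among at least 20, up to 3 per list or class and Khdrbs1; ribosomal protein genes as a group, genes with sites at their ends and the other genes named beside these were chosen after their values were seen. Alternatives were other overlap rules, start lists, comparison sets, gaps and gene sets. There are no replicate values, so no test between days was made. Some results are not reported here.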

Additional observations from a re-analysis of the deposited data

How the results depend on the processing

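The share of day 0 sites that were shared moved with the definition: it was 3.34% when the same 5 positions were required (in 740 genes), 9.07% with an overlap of at least 3 nt, 11.8% with a gap of up to 10 nt allowed, 12.2% in genes with a site on every day, 10.6% from the day 3 list and 4.04% from the day 10 list. The excess of shared sites in genes that are not protein-coding was 1.00 percentage point, 0.785 without the 10 genes with most shared sites (interval -0.047 to 1.70), 0.727 with an overlap of at least 3 nt (interval -0.131 to 1.68), 2.66 with the same 5 positions and 2.75 against other sites in genes with a site on every day. The excess with a neighbour within 50 nt was 6.96 percentage points, 12.1 with the gap allowed, 9.19 for neighbours within 500 nt and 4.54 as a mean over genes. The excess in the last 10% of the gene was 2.23 percentage points and 1.51 (interval -0.653 to 3.91) with the same 5 positions. The difference in median gene length was -11.3 kb, -8.01 kb with the same 5 positions, -16.1 kb against other sites in genes with a site on every day and -8.23 kb without ribosomal protein genes. Of the lists, long non-coding RNAs went from 12.1%, above the 10.1% of all sites, to 7.37%, below it, without Kcnq1ot1, DNA replication and repair genes stood at 9.29% without the 4 genes with at least 50 day 0 sites, cardiac genes fell to 0% without Meis2, and the pluripotency network stood at 4.8% in genes with a site on every day. The cause of these shifts was not tested. Of 99 alternatives, 42 concern a signed difference, and none of these changed its sign. Of all 99, 80 kept a value inside its interval, or moved a count of genes by less than 1.5 times. Alternatives without ribosomal protein genes, without sites near RefSeq starts, without chromosome Y and those per list were chosen after seeing the data. Means over genes of class and length were not run, since both are fixed within a gene. No paired analysis was possible because each day has 1 pooled list, with no column per library. Depth is unknown, so a site missing from a list may be unbound or too thinly covered.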
